A study of Homo sapiens with 4 samples.

Results

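The genes described here are 75 transcription factors that specify lineages in the embryo, out of 60671 genes measured in human embryonic stem cells. They were chosen by gene family name, with earlier results of these data known: the PAX, GATA, T-box, LHX, sine oculis, OTX, MSX, DLX, CDX, HAND and NKX families together with MIXL1 and GSC. The cells were H9, an established human embryonic stem cell line, grown in mTeSR medium. There were 2 groups of 2 libraries: control H9 cells, and H9 cells labelled as CFIm25 knockout with 3Flag-CFIm25 overexpression, called KO+OE here. CFIm25 is a subunit of a cleavage factor that acts in mRNA 3′ processing. In the study the edited cells kept a shortened CFIm25 protein at a low level. They came from single-cell clones picked after plasmid transfection and puromycin selection. Re-expression was driven by a lentiviral EF1 vector in 1 of them, so clone, selection and re-expression cannot be told apart in this group. Nothing in the labels says whether the 2 libraries of a group came from separate cultures, so a p-value here measures the spread between libraries, which may be technical. The question was at what level lineage factors were present in undifferentiated cells, and whether the KO+OE cells differed from control.

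In pluripotent cells most lineage regulators are kept off, or nearly so, and are switched on when signals direct cells towards primitive streak, ectoderm, mesoderm or endoderm. Primitive streak factors such as TBXT, EOMES, MIXL1 and GSC come on first when cells leave the epiblast for mesoderm and endoderm. OTX2 is an exception that is known for its role in the epiblast itself before it acts in the forebrain. Several of these proteins act in more than 1 germ layer, and each was counted once, under its main use.

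The values have no named unit and were read as TPM, the share of transcripts of a gene corrected for its length. On that reading levels can be compared between genes. Each library summed to between 986853 and 987078 TPM, and 12179 to 12332 genes reached 1 TPM in a library. NUDT21, the gene of CFIm25, was listed at 160.7 and 152.2 TPM in control against 162.1 and 156.6 TPM in KO+OE. These gene-level values do not separate the edited gene from the re-expressed copy. The labelled cell type was then checked. Among 12 pluripotency markers, 10 averaged 1 TPM or more, and the list summed to 3338 to 3346 TPM over control and 3312 to 3331 TPM over KO+OE. LIN28B had a level just under the limit, at 0.880 to 1.05 TPM. ZFP42, the gene of the pluripotency factor REX1, was near 0 in both groups, at 0.07 to 0.16 TPM. The study calls rex1 a well-established pluripotency marker. It reports rex1 mRNA in mock control H9 cells, and less of it after CFIm25 editing. The level near 0 in the libraries labelled control differs from that account, and whether this bears on the labels was not tested. Markers of differentiated cells were mixed. SOX17 of endoderm, TFAP2B of neural crest, CGA of trophoblast, PTPRC of blood and LUM of fibroblasts were listed at 0 in every library, and SOX1 of neural cells did not pass 0.06 TPM. Other markers on the same lists were present in both groups: NES at 79.6 to 82.8 TPM, COL1A1 at 53.9 to 55.6 TPM, COL1A2 at 13.0 to 14.5 TPM, KRT7 at 17.3 to 20.6 TPM, NGFR at 11.7 to 13.3 TPM, FOXD3 at 7.37 to 8.34 TPM and KDR at 7.79 to 8.37 TPM. In these bulk libraries fewer cells of a type and less RNA per cell cannot be told apart.

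Of the 75 lineage factors, 9 averaged 1 TPM or more, 19 lay between 0.1 and 1 TPM, 38 lay above 0 but under 0.1 TPM, and 9 were listed at 0 in all libraries. The 9 expressed factors, in order of level, were SIX5, OTX2, OTX1, LHX6, GATA6, SIX2, SIX4, TBX6 and NKX1-2. The share at this level was 9 of 75 for the members, against 55.3% of the 18920 genes with a protein-coding symbol and 20.3% of all genes in the table. The median level was 0.06 TPM for the members and 1.57 TPM for the protein-coding genes. No member lay in the gap between NKX1-2, with a mean of 2.04 TPM, and MIXL1, with a mean of 0.420 TPM. The lowest value of any expressed factor was 1.61 TPM and the highest value of the other 66 was 0.650 TPM, so the division was the same in every library. The expressed factors made up 88.2% to 91.9% of the summed level of all members in each library.

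**Figure D1:**
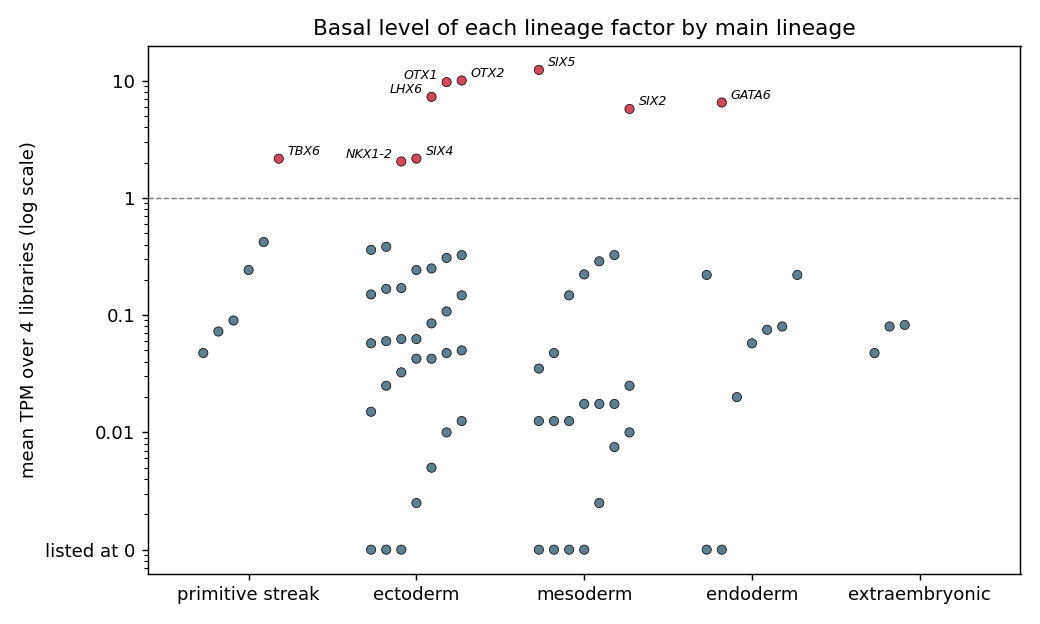
Mean level over the 4 libraries in TPM, on a log scale, of each of the 75 lineage factors, grouped by main lineage; each point is a gene, points at the bottom were listed at 0, and the dashed line marks 1 TPM. The 9 factors above the line, in red, stand apart from the rest, none of which has a mean over 0.420 TPM.

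The primitive streak, ectoderm, mesoderm and endoderm lists each held at least 1 expressed factor, and the extraembryonic list held none. Ectoderm had 5 of 35 at 1 TPM or more (OTX2, OTX1, LHX6, SIX4 and NKX1-2), mesoderm 2 of 22 (SIX5 and SIX2), endoderm 1 of 9 (GATA6), primitive streak 1 of 6 (TBX6) and the extraembryonic list 0 of 3. The summed level of the ectoderm list was 35.5 and 35.1 TPM in control against 33.5 and 33.6 TPM in KO+OE. The group means of this sum were 35.3 and 33.5 TPM, and the difference of OTX2 alone was -2.09 TPM. The other ectoderm factors together were thus not lower in KO+OE. The mesoderm list summed to 19.5 and 19.6 TPM in control against 18.5 and 19.5 TPM in KO+OE, and nearly all of it was SIX5 and SIX2. The primitive streak list stayed between 2.38 and 3.70 TPM in all libraries, most of it TBX6, which is also a factor of presomitic mesoderm. MIXL1, the next gene of that list, did not pass 0.590 TPM. GATA2, GATA3 and CDX2, factors of the extraembryonic lineages, together stayed between 0.110 and 0.410 TPM.

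Both OTX genes, which encode paired-type homeodomain proteins of the anterior neuroectoderm, were expressed. OTX2 (chr14:56799905-56810479, minus strand, GRCh38.p14) was listed at 11.3 and 10.8 TPM in control against 8.77 and 9.17 TPM in KO+OE. OTX1 (chr2:63049735-63057831) was listed at 9.86 and 9.39 TPM in control against 9.79 and 9.76 TPM in KO+OE. The OTX2 values of the groups did not overlap, while those of OTX1 did. The ratio of OTX1 to OTX2 was 0.871 and 0.869 for control and 1.12 and 1.06 for KO+OE, so OTX2 was the higher of the pair in each control library and OTX1 in each KO+OE library. This ratio was looked at after the values had been seen, and it was not tested.

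Among the sine oculis homeobox genes, whose products work with EYA proteins in sense organ, muscle and kidney development, 3 of 6 were expressed. SIX5 (chr19:45764785-45769252), which lies next to the myotonic dystrophy gene DMPK, was the highest of all 75 factors, at 12.6 and 12.4 TPM in control against 12.01 and 12.27 TPM in KO+OE. The antisense gene DM1-AS overlaps SIX5 by 1457 bases and was listed at 0.200 to 1.05 TPM, and reads of the pair could be mixed if strand was not used. SIX2 (chr2:45005182-45009452), a factor of kidney progenitors, was listed at 5.57 and 6.04 TPM in control against 5.34 and 5.97 TPM in KO+OE. SIX4 (chr14:60709539-60724351) was listed at 1.97 and 2.16 TPM in control against 2.31 and 2.20 TPM in KO+OE. SIX3 and SIX6, regulators of the eye field and forebrain, did not pass 0.350 TPM in any library. The family thus held both the highest of all 75 factors and genes near 0.

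LHX6 and GATA6 came next in level. LHX6 (chr9:122202582-122228957), a LIM homeodomain factor of cortical interneurons, was listed at 7.36 and 7.58 TPM in control against 6.17 and 7.96 TPM in KO+OE, so the groups overlapped. The other 7 LHX genes did not pass 0.330 TPM. GATA6 (chr18:22169589-22202528), a zinc finger factor of endoderm and heart, was listed at 5.96 and 8.39 TPM in control against 4.35 and 7.31 TPM in KO+OE. The spread between replicates was wide for GATA6: its pooled SD on the log2 scale was 0.384, where the median of 1256 genes of like level was 0.119. The sum of 5 other endoderm markers lay between 1.08 and 1.4 TPM in all libraries, with SOX17 at 0 in all 4 libraries and FOXA2 at 0.0200 TPM or less. GATA4, the partner of GATA6 in endoderm and heart, was listed at 0.180 to 0.270 TPM.

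TBX6 and NKX1-2 were the lowest of the expressed factors. TBX6 (chr16:30085793-30091924), a T-box factor of presomitic mesoderm, was listed at 2.17 and 1.61 TPM in control against 2.64 and 2.21 TPM in KO+OE, without overlap. The genes PPP4C, at 146.7 to 154.6 TPM, and YPEL3, at 24.2 to 31.8 TPM, lie within 1000 bases of TBX6 but share no bases with it. Whether reads of these neighbours were counted for TBX6 was not tested. MESP2, a marker gene of presomitic mesoderm that is not a member, went the other way from TBX6. It was listed at 2.72 and 2.76 TPM in control against 1.63 and 1.49 TPM in KO+OE. In limma its unadjusted p was 0.0140 and its adjusted p = 0.928. The 5 mesoderm markers, MESP2 included, summed to 11.6 TPM in both control libraries and to 10.3 TPM in both KO+OE libraries. Most of that fall was MESP2 itself. KDR, the highest of the 5, overlapped between groups at 7.79 to 8.37 TPM, and MEOX1 was at 0.05 TPM or less. The part of these markers in the TBX6 values was not tested. NKX1-2 (chr10:124445243-124450035), a homeobox gene of the posterior neural plate, was listed at 1.87 and 2.18 TPM in control against 2.25 and 1.87 TPM in KO+OE. The other 14 T-box genes did not pass 0.510 TPM and the other 13 NKX genes did not pass 0.650 TPM.

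Neighbours in this order often could not be told apart. SIX5 lay above all other members in every library, with its lowest value of 12.01 TPM above the highest of OTX2, 11.3 TPM. OTX2 and OTX1 overlapped in range, as did LHX6 with GATA6 and GATA6 with SIX2, and SIX4, TBX6 and NKX1-2 overlapped with each other. OTX1 at its lowest, 9.39 TPM, was above LHX6 and GATA6 at their highest, 7.96 and 8.39 TPM.

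**Figure D2:**
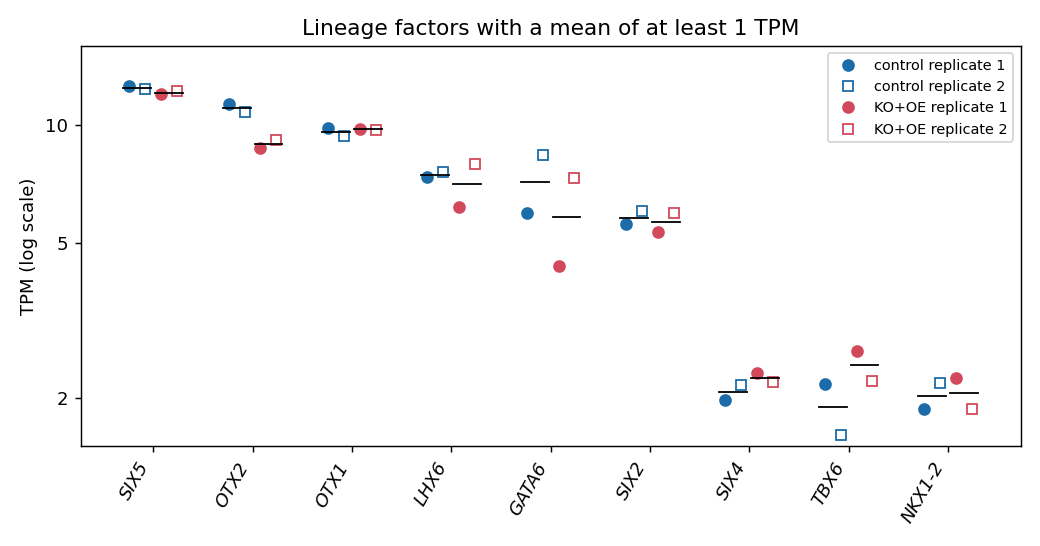
Level in TPM, on a log scale, of the 9 lineage factors with a mean of at least 1 TPM, with a point for each library and a bar for the mean of each group of 2; blue is control and red is KO+OE, filled circles are replicate 1 and open squares replicate 2. OTX2 is lower in both KO+OE libraries, and GATA6 varies more between replicates than between groups.

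In the comparison of KO+OE with control, limma called 0 of the 9 expressed factors at an adjusted p under 0.05, where 0.00812% of the 12319 genes tested were called. At an unadjusted p under 0.05 there was 1 of 9, OTX2, where 5.33% of all genes tested passed. The log2 difference of OTX2 was -0.27 with a standard error of 0.09 and a 95% confidence interval from -0.50 to -0.05, an unadjusted p of 0.0241 and an adjusted p = 0.928 from limma. Group means of OTX2 were 11.1 ± 0.368 TPM for control and 8.97 ± 0.283 TPM for KO+OE (SD, n = 2). OTX2 thus did not pass the correction over all genes, although its values were lower in both KO+OE libraries. With any 1 library left out, the difference lay between -0.31 and -0.24 and the unadjusted p was 0.0583 to 0.108.

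The other 8 factors had unadjusted p-values of at least 0.223. The log2 difference was 0.25 for TBX6 (95% confidence interval -0.21 to 0.71), 0.09 for SIX4 (-0.29 to 0.47) and -0.08 for LHX6 (-0.43 to 0.28). For OTX1 it was 0.02 (-0.20 to 0.24), for SIX2 -0.03 (-0.33 to 0.26), for SIX5 -0.04 (-0.24 to 0.15) and for NKX1-2 0.02 (-0.41 to 0.44). The interval was widest for GATA6, at -0.28 (-0.95 to 0.39), and the difference of GATA6 turned from -0.60 to 0.04 when KO+OE replicate 1 was left out in place of replicate 2. LHX6, SIX2, OTX1 and NKX1-2 also changed sign when 1 library was left out. In this fit the interval of each of the 9 lay within 2-fold in either direction on this scale. That of GATA6 did not in some other runs. Its lower end was -1.07 with a pseudocount of 0.1, -1.08 without the filter on low values and -1.11 without a mean-dependent prior.

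The median log2 difference of the 9 factors was -0.03, beside -0.01 over all genes tested, with 4 higher and 5 lower, and it was 0.04 without KO+OE replicate 1. The groups did not overlap for 4 of the 9 (44.4%), TBX6 and SIX4 being higher and OTX2 and SIX5 lower in KO+OE, where 34.1% of all genes tested had groups without overlap. After rescaling by median ratios or quantile normalization SIX5 overlapped. Summed over all 75 members, the level was 65.8 ± 1.07 TPM for control and 62.4 ± 2.16 TPM for KO+OE (SD, n = 2). The difference of -3.46 TPM compared with a pooled SD of 1.71 TPM, and OTX2 and GATA6 made up most of it. It was -1.93 TPM without KO+OE replicate 1 and -4.99 TPM without KO+OE replicate 2.

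**Figure D3:**
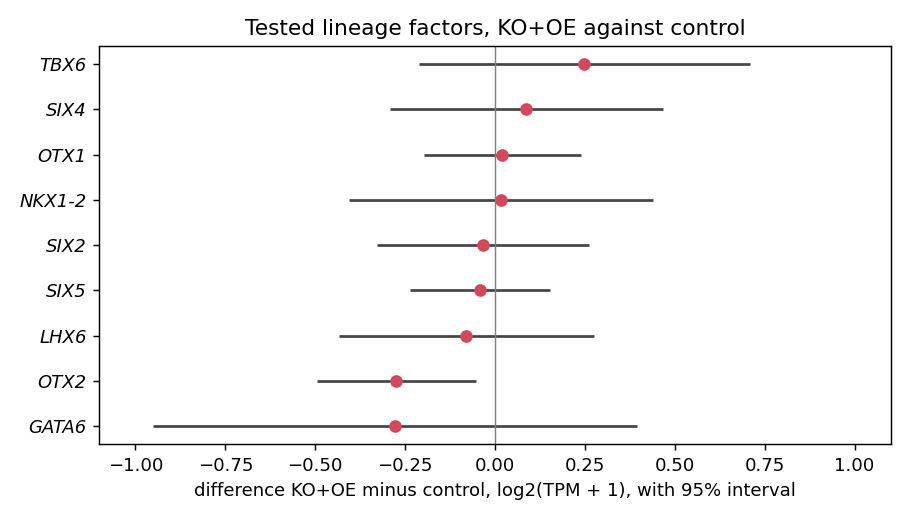
Difference between KO+OE and control on the log2(TPM + 1) scale for the 9 tested lineage factors, with limma's 95% confidence interval as a line. Only the interval of OTX2, from -0.50 to -0.05, leaves out 0, and that of GATA6 is the widest.

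The 19 factors between 0.1 and 1 TPM held members of every lineage list except the extraembryonic. They included MIXL1 and GSC of the primitive streak, TBX19, MSX2, TBX10, NKX6-2, MSX1, SIX3, LHX4, DLX4, LHX8, DLX3 and PAX6 of ectoderm, TBX1, NKX2-5 and NKX2-6 of mesoderm, and GATA4 and CDX1 of endoderm. MIXL1, a homeobox factor of the primitive streak, was listed at 0.590 and 0.230 TPM in control against 0.570 and 0.290 TPM in KO+OE. GSC, a factor of the organizer, was listed at 0.470 and 0.05 TPM in control against 0.360 and 0.0900 TPM in KO+OE. For both, replicate 1 of each group was the higher library and the groups overlapped.

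That order was common at this level. Of the 19 factors, 11 (57.9%) were higher in replicate 1 than in replicate 2 in both groups, 3 (15.8%) were lower in both, and 5 had no shared order. Over all 7406 genes from 0.1 to 1 TPM the shares were 22.8% and 21.0%, and for the 1862 of them with a transcript GC content of at least 55% they were 20.7% and 22.9%. Besides MIXL1 and GSC the 11 included NKX6-2, NKX2-5, MSX1, SIX3, GATA4, DLX4, DLX3 and PAX6. The labels do not say what a replicate number stands for, this count was made after the values had been seen, and no test was made of it. Of the 9 expressed factors, 2 were higher in both replicates numbered 1 and 3 were lower in both, GATA6 among the latter.

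Of these 19 factors, 4 (21.1%) had groups without overlap, beside 27.8% of all genes above 0. That share covers genes of every level, and none was computed for genes from 0.1 to 1 TPM alone. The count is therefore not read as a result about the members. TBX19, a T-box factor of the pituitary, was listed at 0.490 and 0.510 TPM in control against 0.310 and 0.220 TPM in KO+OE. NKX2-5, a homeobox factor of heart progenitors, was listed at 0.530 and 0.250 TPM in control against 0.240 and 0.130 TPM in KO+OE. CDX1, a caudal factor of posterior endoderm, was listed at 0.250 and 0.270 TPM in control against 0.130 and 0.230 TPM in KO+OE. DLX3, a distal-less factor of placenta and skin, was listed at 0.1 and 0.0800 TPM in control against 0.210 and 0.200 TPM in KO+OE. The first 3 were lower in KO+OE and DLX3 was higher. When limma was run without the filter on low values, all 4 had an adjusted p = 0.873, with an unadjusted p of 0.0485 for DLX3 and of at least 0.0625 for the others.

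**Figure D4:**
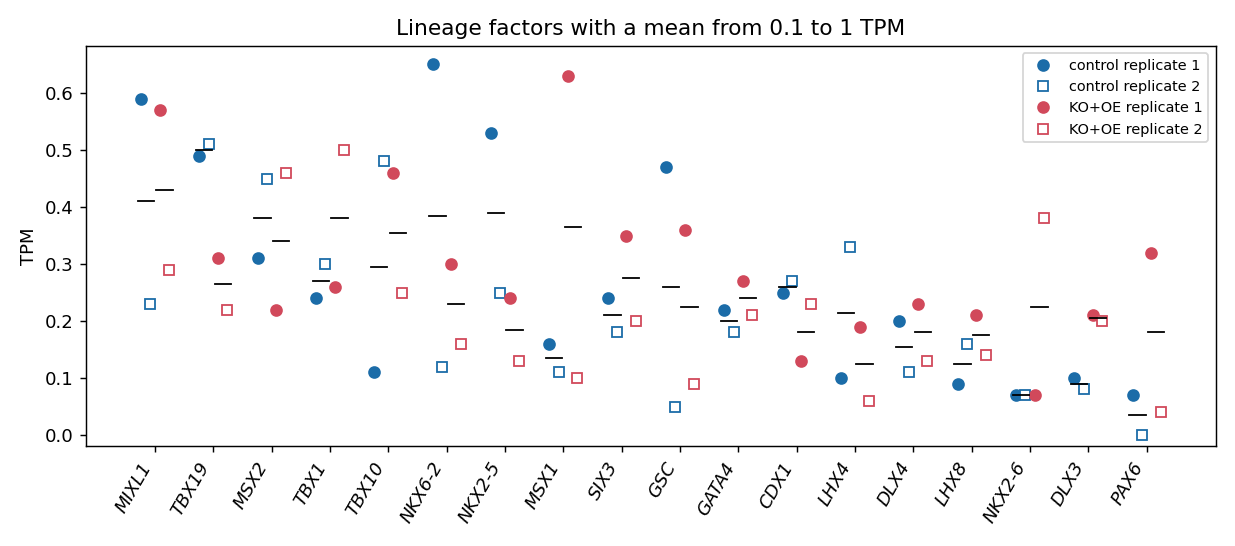
Level in TPM, on a linear scale, of 18 lineage factors with a mean from 0.1 to 1 TPM, with a point for each library and a bar for the mean of each group of 2; blue is control and red is KO+OE, filled circles are replicate 1 and open squares replicate 2. The filled circle lies above the open square of the same colour in both groups for 10 of the 18 shown, MIXL1 and GSC among them.

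Below 0.1 TPM, 38 factors had a value above 0 in at least 1 library. TBXT, the brachyury gene that marks nascent mesoderm, led the primitive streak genes at this level, at 0.0700 and 0.220 TPM in control against 0.0700 and 0 TPM in KO+OE. EOMES, which acts with it in the streak, was listed at 0.0300 to 0.110 TPM. CDX2 reached 0.270 TPM in control replicate 2 and no more than 0.0300 TPM in the other libraries. Apart from PAX6, all PAX genes were here, with PAX7 the highest of them by its mean, 0.0625 TPM. LHX5 led the ectoderm list at this level with a mean of 0.0850 TPM, CDX4 the endoderm list with 0.0800 TPM and PAX8, a kidney and thyroid factor, the mesoderm list with 0.0475 TPM. The 9 factors listed at 0 in all libraries were DLX6, GATA1, TBX18, NKX2-3, TBX2, NKX2-1, LHX9, HAND2 and NKX1-1. A listed 0 shows that no level was recorded at an unknown depth, not that the RNA was absent.

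Across the 57 factors above 0 but under 1 TPM, 14 (24.6%) had groups without overlap, 7 higher and 7 lower in KO+OE. Over all 66 factors above 0 the count was 18 (27.3%), where 27.8% of the 26942 genes above 0 had groups without overlap, so the share of the members was near the background. Under 0.1 TPM these included LHX5, GATA2, PAX3, LHX2 and PAX4, higher in KO+OE, and GATA3, NKX6-3, NKX3-2 and TBX4, lower. GATA3, a factor of trophoblast, was listed at 0.0900 and 0.1 TPM in control but at 0 in both KO+OE libraries. LHX2, a forebrain factor, was listed at 0.0200 and 0 TPM in control against 0.0800 and 0.1 TPM in KO+OE. In limma without the filter, the unadjusted p was 0.0215 for GATA3 and 0.0456 for LHX2, both with an adjusted p = 0.873. In that fit 4 of 66 factors, OTX2 included, passed an unadjusted p of 0.05, where 4.88% of all genes did. Values of this size rest on an unknown number of reads.

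The promoters of 56 members were found in RefSeq, with 1 annotated start for each gene. Sequences just before the start are printed for 6 of them, to show the contrast between level and CpG content: OTX2, OTX1 and GATA6 were expressed, and NKX2-1, HAND2 and GATA1 were listed at 0. Each is the 120 bases up to the start, 5′ to 3′ on the strand of the gene, in GRCh38.p14, and capitals mark CG. The regions were chr14:56810480-56810599 for OTX2, chr2:63050710-63050829 for OTX1, chr18:22169469-22169588 for GATA6, chr14:36520233-36520352 for NKX2-1, chr4:173530230-173530349 for HAND2 and chrX:48786470-48786589 for GATA1. The start used for OTX1 lies inside the gene span given above, downstream of its outer end, whereas the other 5 stretches end at the edge of the gene.
OTX2: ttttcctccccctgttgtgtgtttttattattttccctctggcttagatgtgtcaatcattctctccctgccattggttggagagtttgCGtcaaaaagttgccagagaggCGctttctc
OTX1: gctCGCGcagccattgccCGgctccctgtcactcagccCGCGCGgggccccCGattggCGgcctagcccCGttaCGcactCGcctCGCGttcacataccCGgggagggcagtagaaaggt
GATA6: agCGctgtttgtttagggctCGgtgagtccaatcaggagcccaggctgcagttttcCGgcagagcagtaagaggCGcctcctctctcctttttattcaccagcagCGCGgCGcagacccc
NKX2-1: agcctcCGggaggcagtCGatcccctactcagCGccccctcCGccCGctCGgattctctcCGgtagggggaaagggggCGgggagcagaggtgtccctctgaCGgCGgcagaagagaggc
HAND2: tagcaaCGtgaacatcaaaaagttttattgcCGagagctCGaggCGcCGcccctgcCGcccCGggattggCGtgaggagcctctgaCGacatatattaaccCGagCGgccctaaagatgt
GATA1: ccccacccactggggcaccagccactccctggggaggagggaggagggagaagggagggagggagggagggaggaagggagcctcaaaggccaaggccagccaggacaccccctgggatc

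The OTX2 and OTX1 transcripts were at like levels, yet the stretch before OTX2 held 2 CG and that before the inner start of OTX1 held 14, so the positions compared are not alike. The stretch before GATA6 held 7. Of the genes listed at 0, NKX2-1 had 10 and HAND2 had 11, while GATA1 had 0. Over the whole window of 300 bases, the ratio of observed to expected CpG was above 0.6 for 43 of the 56 members (76.8%), against 65.7% of 15842 protein-coding genes. It was above 0.6 for 7 of 8 expressed members, for 36 of 48 members under 1 TPM (75.0%), and for 7 of the 8 listed at 0. Among protein-coding genes in the table it was above 0.6 for 83.4% of those with a mean of at least 1 TPM and for 44.9% of those below. The members below 1 TPM thus stood nearer to expressed than to unexpressed genes in this share. OTX2, with a ratio of 0.493, was the 1 expressed member under 0.6, and SIX4 lay just above it at 0.602.

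**Figure D5:**
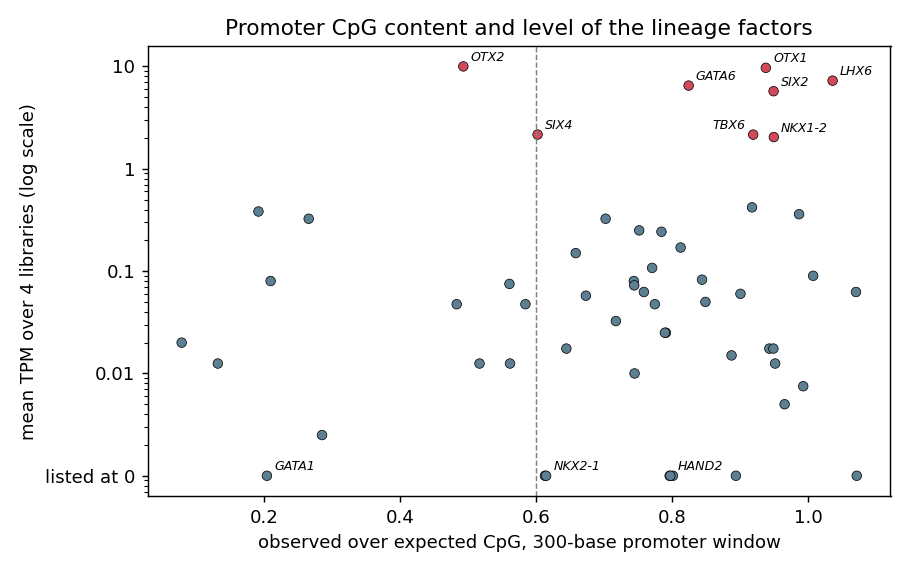
Ratio of observed to expected CpG in a promoter window of 300 bases against the mean level in TPM, on a log scale, for the 56 lineage factors with a RefSeq promoter; points at the bottom were listed at 0, red points have a mean of at least 1 TPM, and the dashed line marks a ratio of 0.6. Factors listed at 0 and expressed factors both occur at high CpG content, and OTX2 lies left of the line.

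The motif TATAAA, searched on the strand of the gene in the 50 bases before the start, was found in 0 of 56 member promoters and in 3.89% of all protein-coding promoters. The median GC content of the canonical transcript was 56.6% for the 75 members and 49.0% for protein-coding genes. It was 56.2% for the 9 expressed factors and 56.8% for the other 66. The median transcript length was 3211 bases for the expressed and 2588 bases for the others.

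Of 16 genes in the table named as antisense to, or divergent from, a member, 8 were listed at 0 in every library, OTX2-AS1 and GATA6-AS1 among them. The highest of these 16 was LHX1-DT, listed at 0.400 and 0.160 TPM in control against 0.120 and 0.170 TPM in KO+OE.

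Cofactor genes of these families reached 1 TPM more often than the members did. Of 31 cofactors, 21 averaged 1 TPM or more, beside 55.3% of the genes with a protein-coding symbol. By family these were 6 of 9 on the LIM cofactor list (LDB, LMO and SSBP genes), all 4 TLE co-repressors and 6 of 8 TALE homeodomain genes. The rest were 2 of 6 for the EYA and DACH partners of sine oculis proteins, both PAX partners and 1 of 2 for the FOG partners of GATA. The highest of each family was SSBP4 with a mean of 61.9 TPM, TLE1 with 24.3 TPM, PBX2 with 52.0 TPM, EYA3 with 2.02 TPM, PAXIP1 with 2.02 TPM and ZFPM1 with 1.86 TPM. EYA1, EYA4, DACH1, MEIS1 and MEIS2, cofactors known from differentiated tissues, did not pass 0.240 TPM.

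None of the 21 cofactors passed an adjusted p of 0.05 in limma. Where 5.33% of all genes tested had an unadjusted p under 0.05, 1 of the 21 cofactors did. This was SSBP4, which binds the LIM adaptor LDB1, at 66.2 and 67.5 TPM in control against 56.1 and 57.8 TPM in KO+OE. Its log2 difference was -0.23 with a 95% confidence interval from -0.34 to -0.11 and an adjusted p = 0.890 from limma. The groups did not overlap for 6 of the 21 (28.6%), 3 in each direction, where the share over all genes tested was 34.1%. EYA2 was listed at 1.16 and 1.08 TPM in control against 1.47 and 1.39 TPM in KO+OE, SSBP2 at 19.5 and 20.2 TPM and at 21.5 and 20.5 TPM, and TLE1 at 25.2 and 24.6 TPM and at 24.2 and 23.1 TPM. The other 2 were LDB1, higher, and TLE3, lower in KO+OE.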

How the data were processed

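Polyadenylated RNA of 4 H9 libraries was sequenced, with group and replicate number read from each title. The columns of the deposited table carry short names with a letter and a number, and the letter c was read as control and f as 3Flag. The submitters' processing notes name the build hg38 and the tools HISAT2, featureCounts, Subread and DESeq2, with no role or version. The deposited values have no named unit and were read as TPM, since the authors' 4 columns hold decimals and sum to nearly one total. How the authors made them, and whether reads were counted by strand, is not given in the sources used here. TPM keeps no depth, so no counting error was computed. The table held 0 columns of other samples.

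The members were the 75 rows whose symbol matched the family names, and each was placed in the lineage of its main textbook use. Members, lists and naming rules were chosen with earlier results of these data known. All members with a mean of at least 1 TPM were named with every value, members from 0.1 TPM were named (some genes are counted but not reported here by name), and lower ones were given by count, except those whose groups did not overlap.

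Genes averaging 1 TPM or more in the 4 libraries were fitted with limma 3.58.1 in R 4.3.3 on log2(TPM + 1), with group as the only term, a mean-dependent prior and a two-sided test. A difference on this scale understates the change of low genes. The Benjamini-Hochberg adjustment covered the 12319 genes fitted. Genes of like level, for the spread between replicates, were those within 1.25-fold of a member's mean. Positions and promoters came from RefSeq on GRCh38.p14 by symbol, where 75 members had a position and 56 a promoter of 250 bases before to 50 after the start. Length and GC content came from the canonical transcript in GENCODE release 44 by identifier. Tables were handled with Python 3.11.15 and pandas 2.3.3.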

Additional observations from a re-analysis of the deposited data

How the results depend on the processing

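No lineage factor passed an adjusted p of 0.05 under any alternative run: a pseudocount of 0.1 or 5, a filter at 5 TPM or none, rescaling by median ratios, quantile normalization, a prior that ignores the mean, the replicate block, and leaving out each library. The count at an unadjusted p went from 1 to 4 without the filter (OTX2, DLX3, LHX2 and GATA3, of 66 fitted). In that run 4.88% of all genes passed. The count was 0 with each library left out. In those runs 1 group has a lone library that is assumed to vary like the rest. Why the count fell was not tested. Without the filter 2 of 31 cofactors passed instead of 1 (SSBP4 and LMO1), where 4.88% of all genes did. Without the mean-dependent prior 2 of 21 passed (SSBP4 and EYA2), where 688 of 12319 genes did. The number of factors without overlap between groups fell to 2 with the filter at 5 TPM, which removes SIX4 and TBX6, was 3 under both rescalings, where SIX5 overlapped, and was 5 to 8 when 1 library was left out, the highest without KO+OE replicate 2; it was 7 without control replicate 1. The set of 9 expressed factors had the same size with a limit of 0.5 TPM, with 1 TPM required in every library and with any library left out.

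With 1 library left out, the log2 difference took either sign for 5 factors: it ran from -0.240 to 0.0813 for LHX6, -0.596 to 0.0397 for GATA6, -0.101 to 0.0354 for SIX2 and -0.0740 to 0.105 for NKX1-2, where each end left out a KO+OE library. For OTX1 it ran from -0.0113 to 0.0525, where each end left out a control library. SIX2 was also 0.0169 without control replicate 2, and NKX1-2 -0.0583 without control replicate 1. No alternative that kept all 4 libraries turned a sign. That of TBX6 ran from 0.109 to 0.389. Over the 12319 genes tested, the deviations of same-numbered libraries had a correlation of -0.0485. A single value over all genes cannot decide whether the libraries pair for single factors. With the replicate block 1 factor had an unadjusted p under 0.05, as without it. The block lowered the standard error of GATA6 from 0.26 to 0.12, with an unadjusted p of 0.0823 in place of 0.337 in limma. It raised the standard error of OTX2 from 0.09 to 0.10.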
